A study of Canis lupus familiaris with 2 samples.

Results

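The microRNAs of the families of miR-148 with miR-152 and of miR-130 with miR-301 were examined in tumour cells of the dog mammary gland, named SNP and grown in 2 forms. Members were chosen by name, as every dog probe on the array called cfa-miR-148a, cfa-miR-148b, cfa-miR-152, cfa-miR-130a, cfa-miR-130b, cfa-miR-301a or cfa-miR-301b, where cfa marks the dog and is left out from here on. This gave 7 probes of the 291 dog miRNA probes, 3 of the first family, called the miR-148 family below, and 4 of the second, called the miR-130 family, each with 1 spot per array. The spheroid sample came from cells found floating in the medium, which were picked and grown as spheroids with no basement membrane or matrix material added. The monolayer sample came from adherent SNP cells kept in RPMI-1640 with fetal bovine serum. One RNA extract per form was labelled with Cy5 and put on 1 array, and the RNA integrity was 9.7 in the spheroids and 9.8 in the monolayer. The spheroids descend from selected floating cells, so selection and growth form cannot be told apart. With 1 sample per form, the differences below have no check by replicates and carry no p-value. In bulk RNA, a change in the share of cells that make a miRNA and a change in its amount per cell cannot be told apart either.

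A mature miRNA guides Argonaute proteins to messenger RNAs that pair with its seed, the bases near its 5′ end, and lowers their translation and stability. The 2 families have overlapping seeds that are shifted against each other, so their target sets are related without being the same. The miR-148 family is best known in human and mouse cells for targeting DNA methyltransferase mRNAs, and miR-148a is abundant in milk and in the lactating mammary gland. The miR-130 family is known for targeting components of TGF-beta signalling. No mature sequences were at hand for these probes, so none are shown and sequence identity between members was not computed. Whether closely related probes read a shared signal was not tested.

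Intensities are given in 3 forms. The raw spot intensity is the scanner's median over the spot's pixels in the red channel. The authors' deposited intensity has the blank-spot mean subtracted and is scaled between arrays. The normalized log2 level was made from the raw intensities with limma (normexp background correction with an offset of 50, then quantile normalization), which pulls differences of dim spots towards 0. A miRNA was called detected when its raw intensity exceeded the blank-spot mean by over 2 SD, which set the limit at an intensity of 79.8 on the spheroid array and 89.8 on the monolayer array. By this measure 201 of the 291 miRNAs were detected in the spheroids and 180 in the monolayer. Of these, 178 were detected on both arrays. The blank mean was 76.7 on the spheroid array and 85.1 on the monolayer array. The blank mean and SD of each array were taken without the highest and lowest 5% of its blank spots. Of all blank spots, 8.10% on the spheroid array and 7.10% on the monolayer array exceeded the limits. The distances from the blank mean and the ratio ranges below use this trimmed SD, which understates the spread of all blank spots. One SD of the blank spots corresponded to 0.771 deposited units in the spheroids and 1.45 in the monolayer. All 6 epithelial markers checked, namely the miR-200 family and miR-205, were detected on both arrays, with summed deposited intensities of 1359 in the spheroids and 900.4 in the monolayer. Of these, miR-205 stood lower in the spheroids, at 27.6 against 170.0 in the monolayer, and the other 5 were higher in deposited units. Of 15 markers of muscle, fibroblast, endothelial, blood and neural cells, 7 were detected on each array, with sums of 119 in the spheroids and 118 in the monolayer. The endothelial miR-126, the blood markers miR-142, miR-144 and miR-451, the muscle and stromal markers miR-1, miR-143 and miR-145 and the neural miR-124 were detected on neither array. The striated muscle markers miR-133a, miR-133b and miR-206 were detected on both arrays, with sums of 9.55 in the spheroids and 20.8 in the monolayer. So was the blood marker miR-223, at 4.05 in the spheroids and 5.46 in the monolayer, and so was the stromal marker miR-214. Each of these detected muscle, blood and stromal markers was lower in the spheroids in deposited units. Of the detected non-epithelial markers, miR-9 stood at 54.8 in the spheroids and 18.7 in the monolayer, and miR-199 at 41.1 in the spheroids and 58.3 in the monolayer. The part of other cell types in the results below was not tested.

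All 7 members were detected in the spheroids and 6 of them in the monolayer, where miR-152 was below the limit. The 6 members detected on both arrays were all higher in the spheroids (miR-148b and miR-301b turned under 1 other scaling, given below), both in the normalized values, where 44.9% of the 178 miRNAs were higher, and in the deposited values, where 50.6% were. The differences were modest on the normalized scale, and 0 of the 6 reached 2-fold, a size reached in either direction by 5.06% of the 178 miRNAs, 2.25% higher and 2.81% lower. In the deposited values 3 of the 6 were 2-fold or more higher, namely miR-148a, miR-148b and miR-130a, against 12.9% of the 178 miRNAs that were 2-fold or more higher. None of the 6 was 2-fold lower in the deposited values, against 14.0% of the 178, and 27.0% were 2-fold apart in either direction. These shares describe 2 arrays and were not tested.

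**Figure D1:**
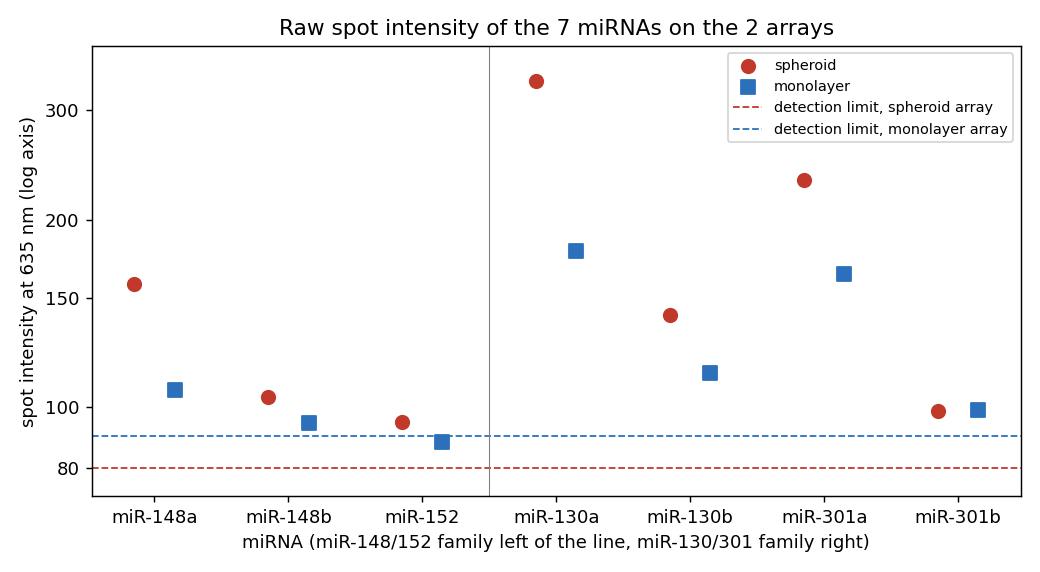
Raw spot intensity in the red channel on a log axis for each of the 7 members, with the spheroid array as circles and the monolayer array as squares, and each array's detection limit as a dashed line. Only miR-152 lies below the limit of its array, in the monolayer, and miR-301b has nearly the same raw intensity on both arrays.

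In the miR-148 family, miR-148a had the larger difference of the 2 members detected on both arrays. This miRNA targets DNMT1 in human cells. Its raw intensity was 157.9 in the spheroids and 106.8 in the monolayer, which lay 52.4 and 9.15 blank SDs above the blank mean of their arrays. Its deposited intensity was 40.4 in the spheroids and 13.2 in the monolayer, a ratio of 3.05. Moving both spots 2 blank SDs towards each other gave a ratio of 2.41, and moving them apart gave 4.05. Its normalized log2 level was 7.06 in the spheroids and 6.36 in the monolayer, a log2 difference of 0.69 or 1.62-fold. Both spots were clear of their detection limits and the spheroid spot was the higher on every scale. Ranked from the highest difference among the 178 miRNAs, miR-148a was number 8 in the normalized values and number 7 in the deposited values.

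miR-148b lies within the span of COPZ1, a gene for a coat protein subunit of Golgi transport vesicles. Its raw intensity was 103.9 in the spheroids and 94.3 in the monolayer, and the monolayer spot lay only 3.90 blank SDs above the blank mean. Its deposited intensity was 13.5 in the spheroids and 5.63 in the monolayer, a ratio of 2.40. With the spots moved 2 blank SDs closer the ratio was 1.41, and with the spots moved apart it was 5.49, so its size is poorly fixed by these spots. The normalized log2 levels were 6.30 in the spheroids and 6.09 in the monolayer, a log2 difference of 0.22. Its position among the 178 miRNAs was number 45 in the normalized values and number 17 in the deposited values.

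miR-152 lies within the span of COPZ2, a paralog of COPZ1, so that a related pair of host genes carries a related pair of miRNAs. Its raw intensity was 94.6 in the spheroids, 11.5 blank SDs above the blank mean, and 87.9 in the monolayer, 1.18 blank SDs above it and not well above background. Its deposited intensity in the spheroids was 8.90, and the deposited table gives no value for the monolayer. Set against the dimmest detected miRNA of the monolayer, at 3.06, it was 2.90-fold higher in the spheroids. On the normalized scale, with levels of 6.17 in the spheroids and 5.90 in the monolayer, the like bound was 1.17-fold. Neither bound allows for the blank-spot error, unlike the ranges given for the other members, so the true ratio may be smaller. The direction turned in 2 of 10 other ways of processing, given below. It was 1 of 23 miRNAs detected in the spheroids only, 7.90% of the 291, whereas 2 miRNAs, 0.687%, were detected in the monolayer only. In deposited units the detection limit was higher in the monolayer, at 2.89, than in the spheroids, at 1.54. The part of these unequal limits in the 2 counts was not tested.

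**Figure D2:**
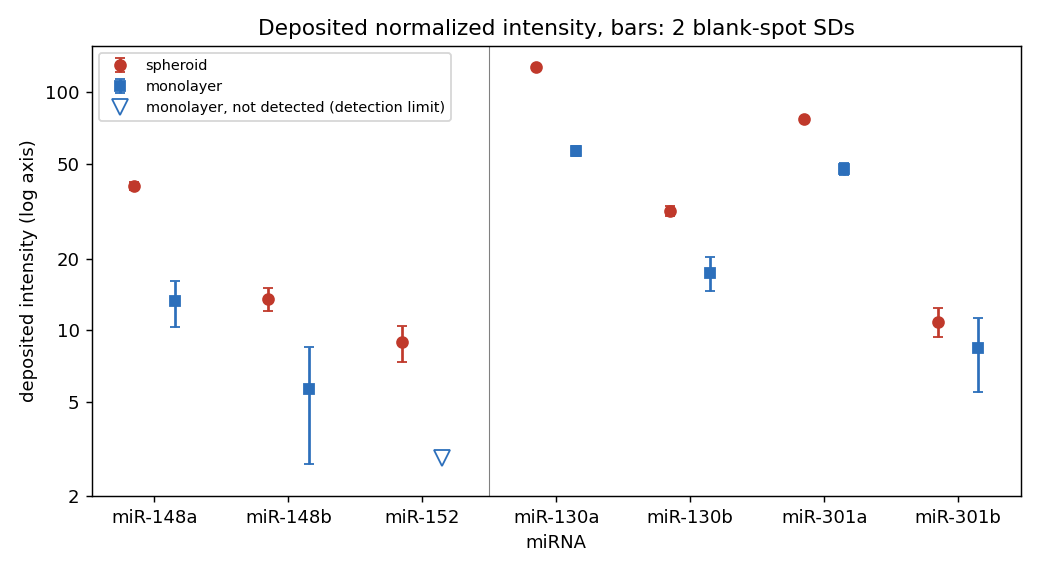
Deposited intensity on a log axis for each of the 7 members, spheroids as circles and monolayer as squares, with bars of 2 blank-spot SDs in deposited units; the open triangle is the monolayer's detection limit for miR-152. The spheroid point is the higher in every pair, and the bars of miR-301b overlap.

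In the miR-130 family, miR-130a had the largest difference. It is known in human endothelial cells for lowering the homeobox factors GAX and HOXA5. Its raw intensity was 333.6 in the spheroids and 178.1 in the monolayer, 166 and 39.3 blank SDs above the blank means. Its deposited intensity was 127.9 in the spheroids and 56.8 in the monolayer, a ratio of 2.25, with 2.12 and 2.40 when the spots were moved 2 blank SDs closer or apart. Its normalized log2 level was 8.07 in the spheroids and 7.36 in the monolayer, a log2 difference of 0.71 or 1.64-fold. Of the members, its ratio was the least affected by the blank-spot error. It was number 7 of the 178 miRNAs in the normalized values and number 19 in the deposited values.

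miR-301a lies within the span of SKA2, a gene for a spindle and kinetochore protein. Its raw intensity was 231.6 in the spheroids and 163.4 in the monolayer. Its deposited intensity was 77.1 in the spheroids and 47.8 in the monolayer, a ratio of 1.61, with 1.49 and 1.75 when the spots were moved 2 blank SDs closer or apart. The normalized log2 difference was 0.41, from levels of 7.54 in the spheroids and 7.13 in the monolayer. Both spots were far above their limits, and the difference was under 2-fold on both scales. It was number 26 of the 178 miRNAs in the normalized values and number 49 in the deposited values.

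miR-130b and miR-301b are encoded next to each other, within 10 kb in the RefSeq gene table. miR-130b had a raw intensity of 140.4 in the spheroids and 113.7 in the monolayer, and a deposited intensity of 31.7 in the spheroids and 17.4 in the monolayer, a ratio of 1.82. The blank-spot error allowed ratios of 1.48 to 2.28, and the normalized log2 difference was 0.35, from levels of 6.86 in the spheroids and 6.51 in the monolayer. miR-301b had a raw intensity of 98.6 in the spheroids and 98.8 in the monolayer, and a deposited intensity of 10.9 in the spheroids and 8.40 in the monolayer, a ratio of 1.29. For miR-301b the blank-spot error allowed ratios of 0.825 to 2.25, and the normalized log2 difference was 0.07, from levels of 6.24 in the spheroids and 6.17 in the monolayer. The higher deposited value of miR-301b in the spheroids thus came with a lower blank mean on that array and not with a brighter spot. miR-130b was number 31 of the 178 miRNAs in the normalized values and number 34 in the deposited values, and miR-301b was number 74 and number 71.

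The spread of repeated control spots gave a second measure of spot error, an SD of 0.065 for a log2 difference, from 6 control probes with 8 spots each. Of the 6 members detected on both arrays, 5 were higher by more than 2 such SDs, a size exceeded by 32.6% of the 178 miRNAs, and miR-301b was not. The blank spots themselves gave a larger SD of 0.082, and the same 5 members were above 2 of these, as were 31.5% of the 178 miRNAs. Neither measure holds any spread between separate cultures, RNA extracts or arrays. Both SDs were taken before quantile normalization, but the differences set against them, here and for the pairs below, were quantile normalized.

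The median log2 difference was 0.28 over the 3 members of the miR-148 family and 0.38 over the 4 members of the miR-130 family, against -0.01 over the 203 miRNAs detected on at least 1 array. In the deposited values the medians were 1.44 over the 2 members of the miR-148 family with a value on both arrays and 0.78 over the 4 members of the miR-130 family, against 0.0046 over the 178 miRNAs. The normalized median of the miR-148 family includes miR-152, which was not detected in the monolayer, and was 0.46 over miR-148a and miR-148b alone. The detection limits corresponded to deposited intensities of 1.54 in the spheroids and 2.89 in the monolayer.

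**Figure D3:**
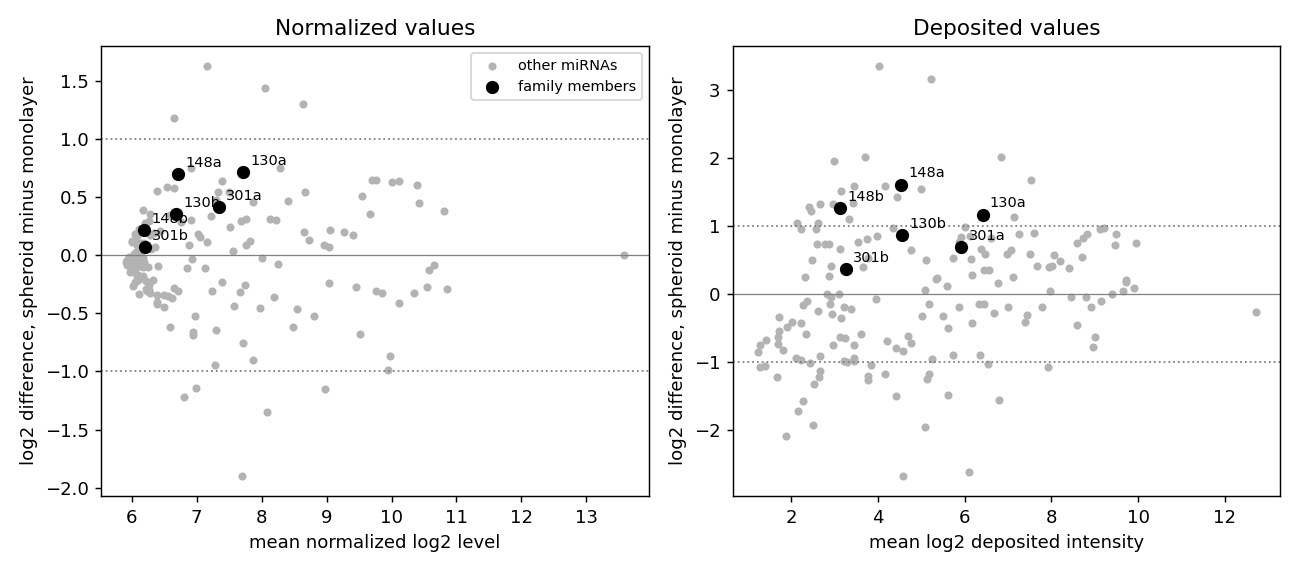
Log2 difference, spheroid minus monolayer, against the mean log2 level for the 178 miRNAs detected on both arrays, in the normalized values (left) and the deposited values (right), with the 6 members in black and dotted lines at 2-fold. The members all lie above 0 in both panels, and 3 of them lie above the 2-fold line in the deposited values and 0 in the normalized values.

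Within the families the members differed in size. The log2 difference of miR-148a exceeded that of miR-148b by 0.48, which is 5.19 control-spot SDs for a pair of spots. That of miR-130a exceeded miR-130b by 0.36, or 3.89 such SDs, and that of miR-301a exceeded miR-301b by 0.34, or 3.74 SDs. The genomic neighbours miR-130b and miR-301b differed by 0.28, or 3.07 SDs. The order of each of these 4 pairs held in all 11 other ways of processing. In each pair, however, the ranges of the deposited ratio allowed by the blank-spot error overlapped. Another pair, miR-301a and miR-454 of the span of SKA2, kept its order in 8 of 11. Its gap was 0.23 in the normalized values and -0.57 at the lowest. The 11 are not separate checks of a gap between miRNAs. No scaling and every scaling to a median or percentile differ only by a constant shift per array, which leaves such a gap unchanged. The spike setting and the deposited values also differ only by such a shift for these miRNAs. These counts therefore overstate how widely the order was checked. In each pair of an a-form and a b-form, the a-form had the larger difference and, in both cultures, the brighter spot. The part of spot brightness in these gaps was not tested.

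Direction depended on scaling for the dim members. miR-148a, miR-130a, miR-130b and miR-301a were above 0 under all 11 other ways of processing, with log2 differences of 0.40 to 2.22 for miR-148a, 0.64 to 1.78 for miR-130a, 0.09 to 1.47 for miR-130b and 0.25 to 1.30 for miR-301a. miR-148b and miR-301b were above 0 in 10 of 11, and were at -0.077 and -0.27 when the arrays were scaled to the 75th percentile of the miRNAs detected on both, which moved the median of those 178 miRNAs to -0.28. miR-152 was above 0 in 8 of the 10 that gave it a value, at -0.10 with that scaling and -0.10 when the scanner's second column was subtracted as a local background. That column is headed as background but followed the spot itself, at a median of 0.833 of the spot's intensity on the spheroid array and 0.816 on the monolayer array, with log correlations of 0.971 and 0.973 over all spots, so its subtraction also removes signal. Processing shifted all miRNAs. The median of the 203 detected miRNAs was 0.66 with the spike controls and -0.30 with the 75th percentile of those detected on both. The miR-148 family median was 2.22 and -0.077 under these 2 settings, and the miR-130 family median 1.39 and 0.17. The spike setting also replaced normexp by subtraction of the blank mean. That subtraction with quantile normalization gave family medians of 1.56 and 0.71, so the spike setting does not show scaling alone. Relative to the median of all detected miRNAs, the miR-148 family median was higher by 0.19 to 1.60 over all 12 ways of processing. The miR-130 family median was higher by 0.29 to 0.77. No scaling and scaling to a median or 75th percentile differ only by a constant shift per array. They necessarily gave the same excess, 0.22 and 0.47, and are not separate checks. In 11 of the 12 every member with a value lay above the median of all detected miRNAs, and miR-152 did not when the second column was subtracted.

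**Figure D4:**
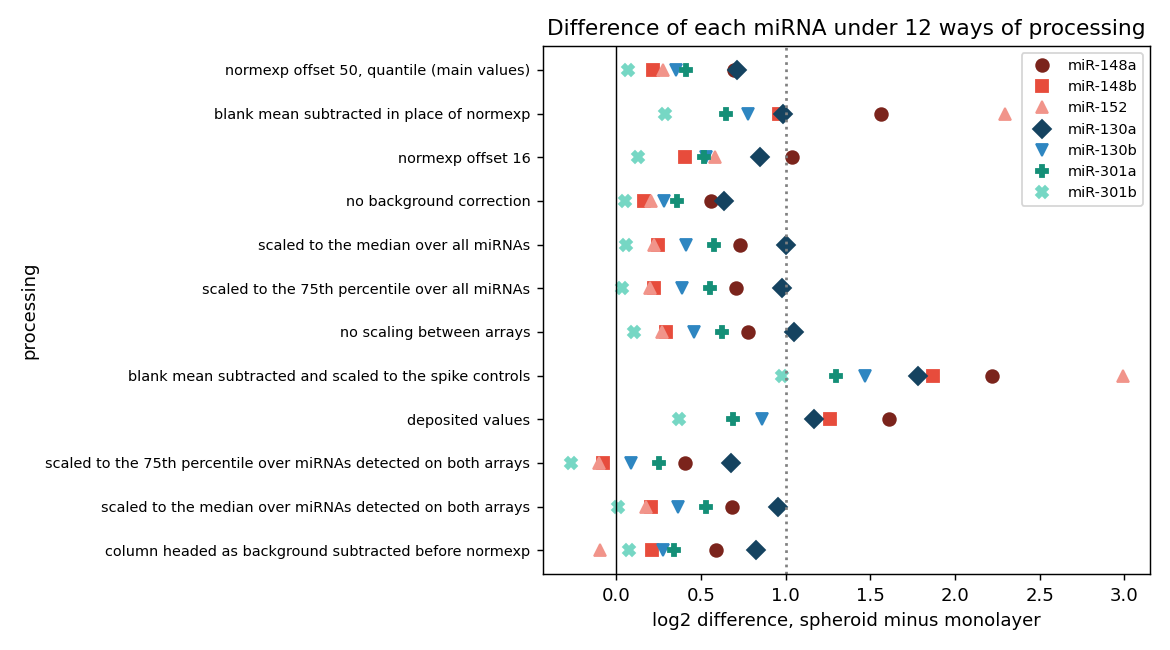
Log2 difference, spheroid minus monolayer, of each of the 7 members under 12 ways of processing, one per line, with the normalized values of the report at the top, a solid line at 0 and a dotted line at 2-fold. The points of miR-148a, miR-130a, miR-130b and miR-301a stay right of 0 throughout. The whole group lies furthest right with the blank mean subtracted and scaling to the spike controls.

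Other miRNAs whose seeds overlap with those of the 2 families were taken from a list of names: miR-454, the miR-17 family (miR-17, miR-20a, miR-20b, miR-93, miR-106a and miR-106b), the miR-302 group, miR-372 and miR-373. Of these, 11 were on the array, 9 were detected on at least 1 array and 8 on both. Of these 8, 3 were higher and 5 lower in the normalized values, and 4 were higher and 4 lower in the deposited values. With scaling to the median or 75th percentile of all miRNAs or with no scaling 6 were higher and 2 lower. With the blank mean subtracted and the spike controls 7 were higher and 1 lower. With the 75th percentile of the miRNAs detected on both arrays, or with the second scanner column subtracted, 2 were higher and 6 lower. The list's median over the 9 was -0.11. It was 0.13 with scaling to the median of all miRNAs and 0.66 with the spike controls. With the 75th percentile of the miRNAs detected on both arrays it was -0.20, and with the second column subtracted -0.50. By size of difference miR-302c, a miRNA of pluripotent cells, stood first, with a deposited intensity of 17.3 in the spheroids and 67.2 in the monolayer and a log2 difference of -1.15. The rest of the miR-302 group did not share this level. miR-302a and miR-302b were detected on neither array, and miR-302d only in the spheroids, at 2.16 against a limit of 1.54. miR-106a, of a growth-promoting cluster, had 549 in the spheroids and 591 in the monolayer, with a log2 difference of -0.41. Its difference was above 0 in 5 of 11 other ways of processing. Its relatives miR-20a and miR-20b were at -0.31 and -0.24 on the normalized scale and had deposited ratios of 0.972 and 1.04, and each was above 0 in 6 of 11 other ways. miR-454, named here after its values were seen because it is usually grouped with miR-130 and miR-301 and lies in the span of SKA2 like miR-301a, had a deposited intensity of 8.40 in the spheroids and 3.61 in the monolayer. Its ratio was 2.33, its monolayer spot was only 2.49 blank SDs above the blank mean, and its normalized log2 difference was 0.18.

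**Figure D5:**
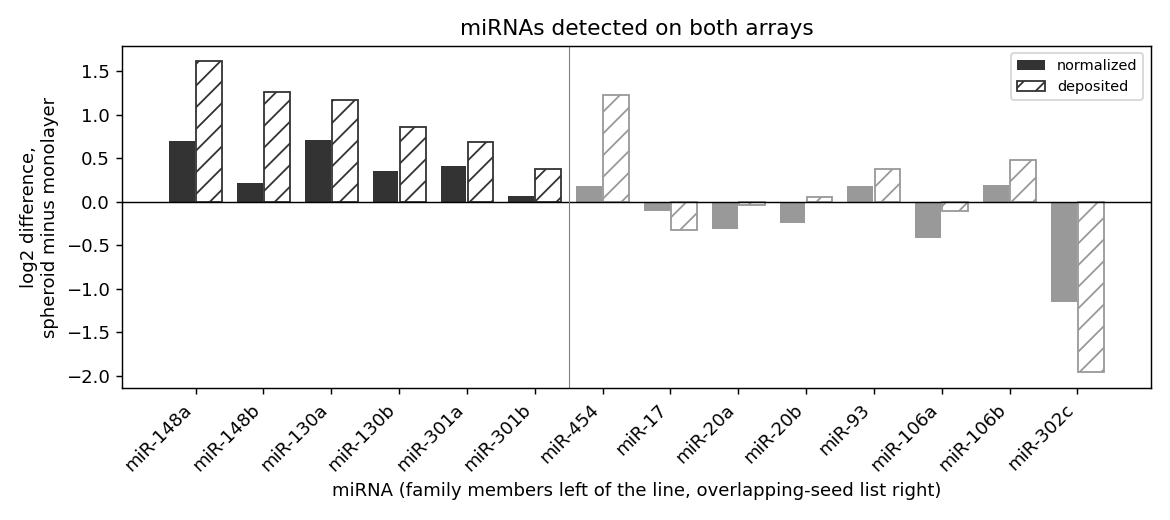
Log2 difference, spheroid minus monolayer, of the 6 members detected on both arrays (left of the line) and of the 8 miRNAs of the overlapping-seed list detected on both (right), as filled bars for the normalized values and hatched bars for the deposited values. All bars of the members lie above 0, and those of the list lie on both sides, with miR-302c the lowest.

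Likeness of pattern could be judged only over 2 arrays, as the distance between points set by the normalized log2 levels in the spheroids and the monolayer. By this measure the miRNAs nearest to miR-148a were miR-342, at a distance of 0.11, and miR-130b, at 0.24. miR-148b lay nearest to miR-196a and miR-30e, and miR-130a to miR-15a and miR-96, the last at a distance of 0.29. miR-130b lay nearest to miR-138a and miR-374b, miR-301a to miR-331 and miR-98, and miR-301b to miR-362 and miR-194. All 12 of these distances were under 0.3, and probe brightness enters each of them.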

How the data were processed

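RNA of 1 spheroid and 1 monolayer sample was Cy5-labelled and run on an array each, per the labels' protocols. The authors' scanner tables give the raw intensity of 3200 spots in the red channel, neither background corrected nor scaled, per the file headers. The authors' value table holds normalized intensities; set against the scanner values, it equalled the intensity minus the mean of the blank spots, without the highest and lowest 5% of them, times 0.498 (spheroids) or 0.611 (monolayer), within 0.026%. Members were matched to it by MIMAT identifier. Empty cells were the undetected miRNAs.

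Raw intensities of all spots were corrected with normexp (offset 50, limma 3.58.1, R 4.3.3), log2-transformed and quantile normalized across all 291 dog probes. These steps were tested on simulated data. Both simulated arrays were built from the monolayer spots with the same blank level and spread, so unequal blanks were not covered. Lower bounds for miRNAs detected on 1 array were taken against the lowest detected level on the array without detection, or, on the normalized scale, the probe's own level if higher. Python 3.11.15, numpy 2.4.6, pandas 2.3.3 and matplotlib 3.10.9 served for the rest. Each of the 7 members was found by symbol in RefSeq's dog gene table (UU_Cfam_GSD_1.0), used only for which genes neighbour or hold each other. The design had meant to find the overlapping-seed list from sequences and used its list of names instead. All members, that list of overlapping seeds, the markers and the alternatives were chosen with earlier results of these data known. The rule for naming took all members, the 4 largest differences of the list, neighbours within 10 kb and the 2 nearest miRNAs by level.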

Additional observations from a re-analysis of the deposited data

How the results depend on the processing

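No paired analysis was possible because each culture form has 1 sample. Scaling to the spike controls was always combined with subtraction of the blank mean in place of normexp. The median of the miR-148 family, 0.28, was 1.56 with the blank mean subtracted, 0.58 with an offset of 16, 0.20 without background correction, 2.22 with the spike controls, 1.44 in the deposited values and 0.69 over the 1 member (miR-148a) above the blank mean plus 5 SD on both arrays. The median of the miR-130 family, 0.38, was 0.71 with the blank mean subtracted, 0.52 with an offset of 16, 0.50 with median scaling, 0.47 with the 75th percentile, 0.54 with unscaled arrays, 1.39 with spike scaling and 0.78 in the deposited values. The median of the overlapping-seed list, -0.11, was -0.21 with the blank mean subtracted, -0.24 above the 5 SD limit, 0.13 with median scaling, 0.11 with the 75th percentile, 0.18 with unscaled arrays, 0.66 with spike scaling and 0.0049 in the deposited values. For these 3 medians in turn, 3 settings chosen after seeing the data gave -0.077, 0.17 and -0.20 with the 75th percentile of the miRNAs detected on both arrays, 0.20, 0.45 and 0.083 with their median, and 0.21, 0.31 and -0.50 with the second scanner column subtracted, which followed the spot and so takes away signal. The number of members 2-fold or more apart, 0 in the normalized values, was 1 with the blank mean subtracted, with an offset of 16, with median scaling and without scaling, 3 in deposited units and 5 with spike scaling, in every case higher in the spheroids. Over all miRNAs detected on both arrays that number was 9 in the normalized values, 52 with the blank mean subtracted, 14 with an offset of 16, 13 with median scaling, 15 without scaling, 48 in deposited units and 75 with spike scaling. Of 76 values of single members under other settings, 72 were above 0, and the 4 below were miR-148b at -0.077, miR-152 at -0.10 and -0.10 and miR-301b at -0.27. The cause of these shifts was not tested. With the limit at the blank mean plus 5 SD, 7 members were detected in the spheroids and 5 in the monolayer. The share of all 291 miRNAs at that limit is not given here, so these counts cannot be set against it. At the limit of 2 SD the share was 69.1% in the spheroids and 61.9% in the monolayer. Signal over background limits miR-148b, miR-152 and miR-301b most.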
